A study of Mus musculus with 12 samples.

Results

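The 67 genes described here encode carriers that move glucose, amino acids, lactate and related small metabolites across membranes of cells. They are all genes whose platform symbol is Slc1a, Slc2a, Slc3a, Slc7a, Slc16a, Slc36a, Slc38a or Slc43a followed by a number, taken from 30743 genes with a row of their own, and each had a single row. Expression was measured on whole-transcript arrays in endothelial cells sorted from ear skin of C57BL6 mice, given both as adult and as 5 weeks old. All mice carried the lymphatic reporter Tg(Prox1-EGFP)KY221Gsat. Cells enriched with PECAM1 antibody on beads were sorted into lymphatic endothelial cells (LEC), which carried podoplanin and the reporter, and blood endothelial cells (BEC), which carried PECAM1 but not podoplanin, the reporter or LYVE1. Surface LYVE1 divided the LEC further: low or absent LYVE1 was assigned to collecting vessels (col LEC), an intermediate amount to pre-collecting vessels (pre-col LEC) and a high amount to capillaries (cap LEC). There were 3 biological replicates in each of the 4 groups, 1 array apiece, and nothing says whether an array came from a single mouse or a pool, so p-values measure the spread between these samples. The subtypes are LYVE1 gates, so vessel type was assigned from 1 surface protein.

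Slc2a genes encode GLUT carriers, through which sugars flow down their gradient, and Slc16a genes encode the MCT family, whose best known members carry lactate and pyruvate together with protons. Slc1a, Slc7a, Slc38a and Slc36a genes, and Slc43a genes other than Slc43a3, encode amino acid carriers. Some of these accumulate amino acids with sodium or protons while others swap an inner for an outer amino acid. Several Slc7a light chains reach the cell surface only when joined to the heavy chain encoded by Slc3a2 (CD98) or Slc3a1. Endothelium is known for its use of glucose, and in brain capillaries GLUT1, the amino acid exchanger LAT1 and the lactate carrier MCT1 supply the tissue behind the vessel wall.

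Values are log2 RMA values, a robust summary of the probes of a gene after background correction, and each comparison is made within a gene. Array medians lay between 6.06 and 6.17, and arrays correlated with r = 0.978 to 0.990 within groups, 0.979 to 0.991 across LEC groups, and 0.959 to 0.971 for LEC paired with BEC. The endothelial genes Cdh5, Tek, Kdr and Erg had a mean log2 level of 11.19 to 11.47 on LEC arrays and 11.57 to 11.82 on BEC arrays. The 6 mural cell markers, which mark the contractile cells around vessels, averaged 6.71 to 8.59 on LEC arrays and 9.31 to 9.56 on BEC arrays, and all 6 were lower in LEC by limma's test. On pre-col LEC replicate 1 this mural mean was 8.59 and the fibroblast mean 8.69, against 7.11 to 7.59 and 6.77 to 7.20 on the other pre-col arrays, and the fibroblast mean was 7.93 on col LEC replicate 1 against 6.65 to 6.75 on the other col arrays. The mean of 7 blood endothelial markers was 8.60 on pre-col LEC replicate 1 against 7.97 to 8.18 on the other pre-col arrays, 7.83 to 8.19 on col and cap LEC arrays and 11.44 to 11.59 on BEC arrays. Cap LEC replicate 1 had a mural mean of 7.44 against 6.71 to 6.83 on the other cap arrays. A gene was tested where it exceeded the array's median on at least 3 arrays, which 54 of the 67 genes did. Of these 54, 45 exceeded it on all 12 arrays.

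The 13 genes that were not tested were Slc2a2, Slc2a5, Slc16a7, Slc16a10, Slc1a2, Slc1a3, Slc7a9, Slc7a11, Slc7a12, Slc7a13, Slc7a14, Slc3a1 and Slc38a11. Their array values ranged from 3.46 to 6.61. Slc7a11, the cystine and glutamate exchanger, ranged from 4.66 to 4.86 on the 12 arrays, and the glial glutamate carriers Slc1a2 and Slc1a3 ranged from 5.12 to 5.35 and from 4.94 to 5.13. The 4 groups overlapped for all 3 genes. The range of the 3 LEC group means was at most 0.25 (log2) in 39 of the 54 tested genes, or 72.2%, against 77.8% of all genes tested, and its median was 0.143 against 0.142, values near those of genes in general.

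**Figure D1:**
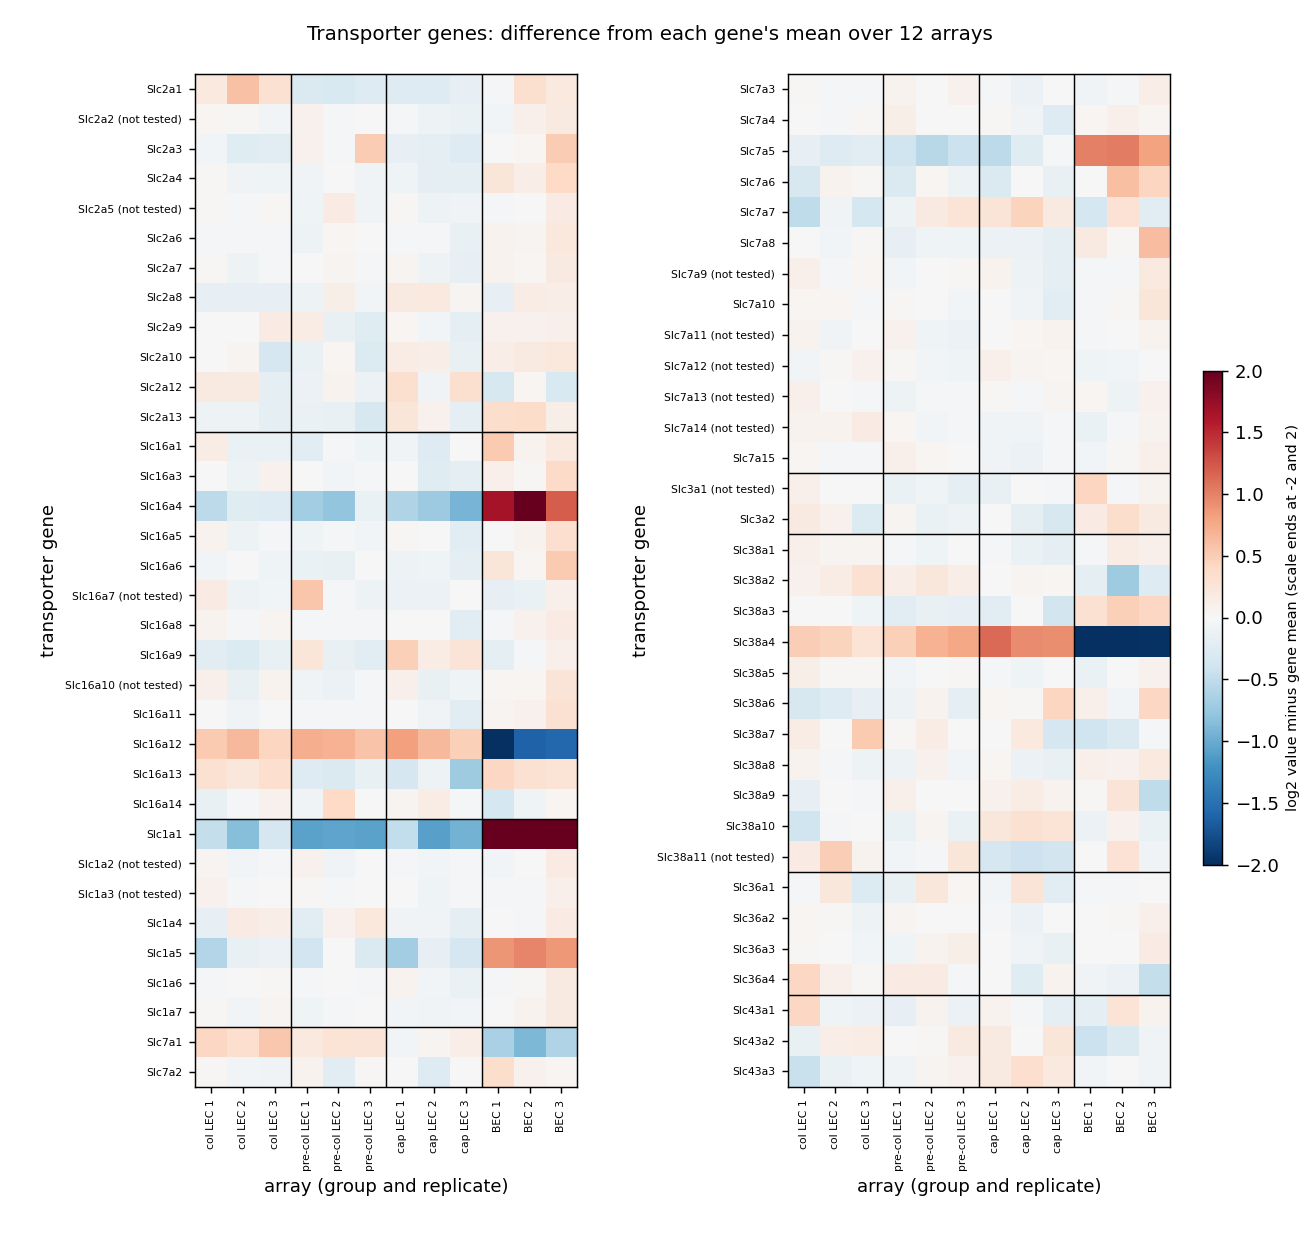
Log2 value minus the gene's mean over 12 arrays (colour) for the 67 transporter genes (rows, lines between families) on each array (columns, grouped as col LEC, pre-col LEC, cap LEC and BEC). Slc38a4 and Slc16a12 are above their mean on LEC arrays, and Slc1a1, Slc16a4, Slc7a5 and Slc1a5 are above theirs on BEC arrays.

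Promoter windows of 250 bases before to 50 after a start site, from RefSeq (build GRCm38.p6), were read for 50 of the 67 genes, in 61 windows. They were searched on both strands for ACGTG (core of the hypoxia response element), TGATGNAA (core of the C/EBP-ATF response element) and GGGCGG (GC box). ACGTG was in 32.8% of the 61 windows and 19.6% of all 32851 windows, TGATGNAA in 6.56% and 3.97%, and GGGCGG in 59.0% and 35.7%. Shown 5′ to 3′ with these motifs in capitals are the windows of Slc2a1, the gene called in both comparisons of col LEC, of Slc16a12, higher in LEC, and of Slc1a1, lower in LEC. They lie at chr4:119108495-119108794 (plus strand), chr19:34747279-34747578 (minus strand) and chr19:28834885-28835184 (plus strand).
Slc2a1: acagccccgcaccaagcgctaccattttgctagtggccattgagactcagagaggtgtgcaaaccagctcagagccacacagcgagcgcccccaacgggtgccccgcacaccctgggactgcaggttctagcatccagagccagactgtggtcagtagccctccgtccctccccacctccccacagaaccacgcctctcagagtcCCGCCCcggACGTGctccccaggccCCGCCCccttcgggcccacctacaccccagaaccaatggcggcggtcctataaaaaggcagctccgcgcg
Slc16a12: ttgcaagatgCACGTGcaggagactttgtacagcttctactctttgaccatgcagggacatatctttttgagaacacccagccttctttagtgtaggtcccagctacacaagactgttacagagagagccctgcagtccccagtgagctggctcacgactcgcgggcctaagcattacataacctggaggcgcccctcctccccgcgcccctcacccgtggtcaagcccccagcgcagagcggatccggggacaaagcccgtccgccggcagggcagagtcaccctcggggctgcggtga
Slc1a1: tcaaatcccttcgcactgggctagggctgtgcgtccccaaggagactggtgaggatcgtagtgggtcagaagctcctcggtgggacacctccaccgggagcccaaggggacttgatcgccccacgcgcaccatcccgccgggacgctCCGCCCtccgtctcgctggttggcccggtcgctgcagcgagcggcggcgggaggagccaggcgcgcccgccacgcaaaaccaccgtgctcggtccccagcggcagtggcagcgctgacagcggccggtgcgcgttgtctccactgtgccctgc
The Slc2a1 window held ACGTG at 1 position between 2 GC boxes. The Slc16a12 window held ACGTG on both strands at 1 palindromic site and no GC box, and the Slc1a1 window held 1 GC box. A match is a description of these letters and not of a bound site.

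Lymphatic and blood endothelium were compared by subtracting BEC from the average of the 3 LEC group means. LEC were higher than BEC in the amino acid carriers Slc38a4 (6.67-fold), Slc7a1 (1.94-fold), Slc38a2 (1.43-fold) and Slc43a2 (1.27-fold), and in Slc16a12 (5.51-fold), an MCT family member that carries creatine. They were lower in Slc1a1 (9.66-fold), Slc16a4 (4.52-fold), Slc7a5 (2.40-fold) and Slc1a5 (2.32-fold), and by smaller folds in 9 more genes. In all, 5 of 54 genes were higher and 13 lower at adjusted p under 0.05 (33.3%), against 22.6% of the 19675 genes tested (2370 genes higher, and 2083 or 10.6% lower). Every LEC array lay above every BEC array in 4 of 54 genes and below in 10, against 8.42% and 9.43% of all genes. The median log2 fold change was -0.10 over the 54 genes and -0.02 over all genes tested. A gene that passes the filter only where it is high had to differ, so these counts are descriptions. In bulk samples such as these, fewer cells of a type and less RNA per cell cannot be told apart. The mural difference given above runs with the genes lower in LEC, as do Krt5 and Krt14 of 3 tested keratinocyte markers (-0.44 and -0.41). So does Kit of 2 tested T cell and mast cell markers (6.62 to 7.23 in LEC, 9.11 to 9.48 in BEC). The part of any of these markers in the lower genes was not tested.

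**Figure D2:**
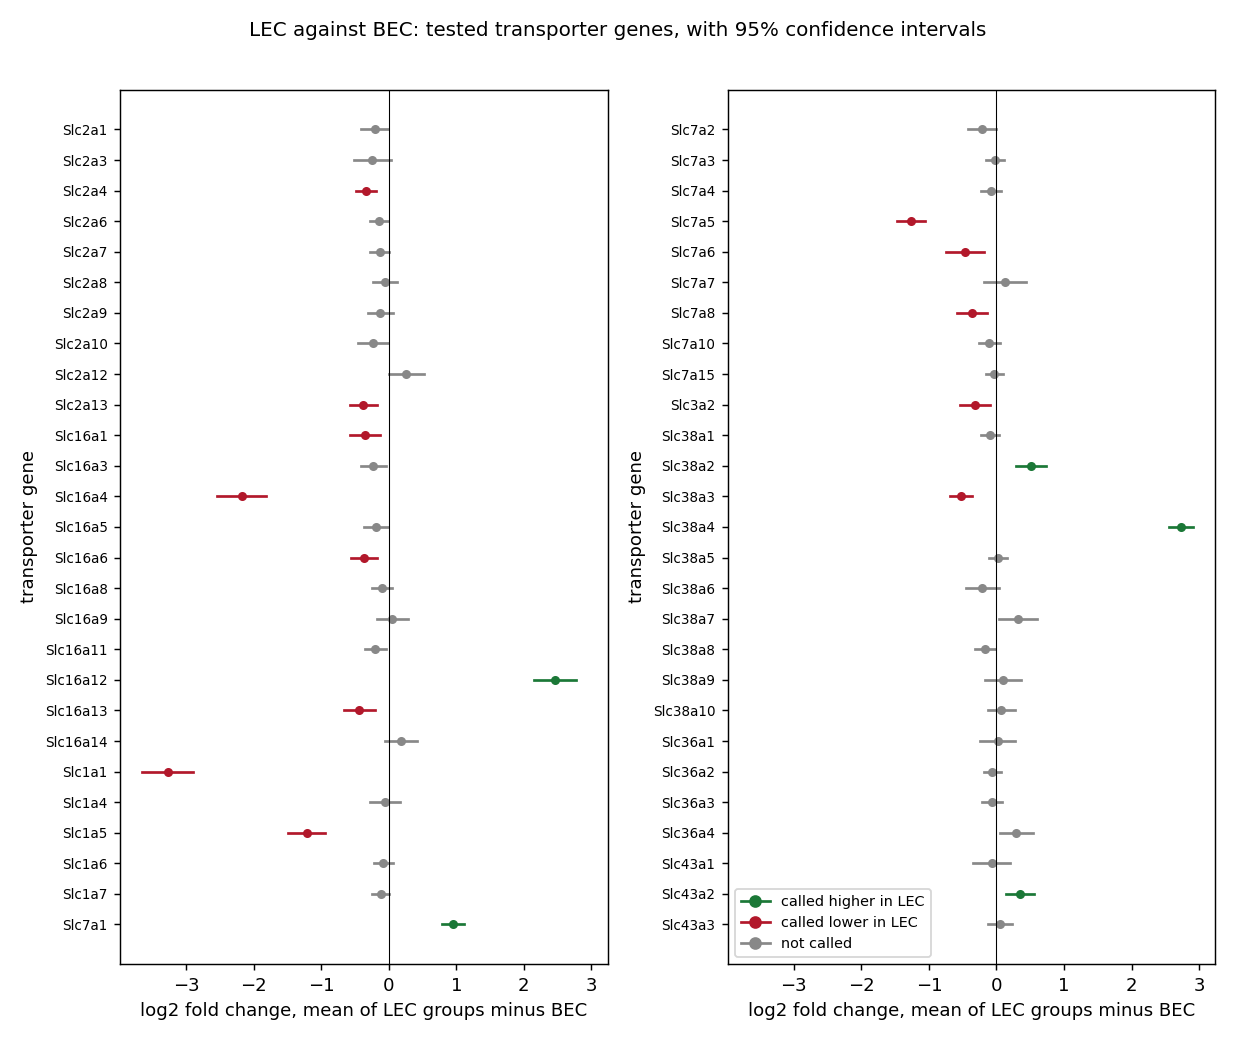
Log2 fold change of the mean of LEC groups minus BEC (x axis) with 95% confidence interval for the 54 tested transporter genes (y axis). Green genes were called higher in LEC (5), red genes lower (13), and Slc1a1 (-3.27) and Slc38a4 (2.74) mark the ends.

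Among the glucose carriers, limma called 0 of 10 higher in LEC than in BEC and 2 lower. Slc2a12, a glucose carrier, was the only one above BEC with an unadjusted p under 0.05 (0.26, adjusted p = 0.132). Slc2a4 (GLUT4, the insulin-responsive carrier of muscle and fat) had log2 values of 6.68, 6.59 and 6.57 in col LEC, 6.58, 6.65 and 6.58 in pre-col LEC and 6.56, 6.46 and 6.47 in cap LEC, against 6.89, 6.78 and 7.05 in BEC. The 9 LEC arrays all lay below the 3 BEC arrays, with a log2 fold change of -0.34 ± 0.07 (SE, adjusted p = 0.00285). Slc2a13, which carries myo-inositol with protons, was at -0.38 ± 0.09 (adjusted p = 0.0107) with overlapping groups, and lost its call without BEC replicate 2 (adjusted p = 0.0526). Slc2a1 (GLUT1, the main glucose carrier of endothelium) averaged 10.10 ± 0.20 in col LEC, 9.46 ± 0.03 in pre-col LEC, 9.52 ± 0.06 in cap LEC and 9.90 ± 0.19 in BEC (SD, n = 3 each). Col LEC overlapped BEC, while pre-col and cap LEC lay below it, and the LEC mean did not pass the test (-0.20, 95% confidence interval -0.40 to -0.00, adjusted p = 0.138). It passed without BEC replicate 1 (adjusted p = 0.0399) and after cyclic loess between arrays (0.0256). Slc2a3 (GLUT3, the high-affinity carrier of neurons) was at 6.27 to 7.04 in LEC and 6.52 to 7.03 in BEC, with its highest values on pre-col LEC replicate 3 and BEC replicate 3. The other 6 tested Slc2a genes, Slc2a6 to Slc2a10 and Slc2a12, had log2 fold changes of -0.23 to 0.26.

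The monocarboxylate carriers held 1 of the 5 genes higher in LEC and 4 of the 13 lower genes. Of the 11 tested, 45.5% were called, against 22.6% of all genes tested. Slc16a12 was at 9.32, 9.45 and 9.23 in col LEC, 9.53, 9.48 and 9.36 in pre-col LEC and 9.61, 9.44 and 9.26 in cap LEC, against 6.44, 7.17 and 7.23 in BEC. The LEC arrays all lay above BEC, the 3 LEC groups overlapped, and the log2 fold change was 2.46 ± 0.14 (adjusted p = 8.66e-08). Slc16a4 (MCT5, whose substrates are little known) was at 5.26, 5.55 and 5.54 in col LEC, 5.10, 5.01 and 5.66 in pre-col LEC and 5.19, 5.07 and 4.86 in cap LEC, against 7.46, 7.81 and 7.01 in BEC. It exceeded the array median on the 3 BEC arrays alone, so it passed the filter only where it was high and its p is a description. The log2 fold change was -2.18 ± 0.17 (adjusted p = 1.09e-06). Slc16a13 (MCT13) was lower in LEC, at -0.44 ± 0.10 (adjusted p = 0.00928), a mean over unequal LEC groups that is described with the subtypes. Slc16a6 (MCT7, linked to ketone body export in zebrafish) was at -0.36 ± 0.09 (adjusted p = 0.0111) without overlap. BEC replicate 3 decided its call, which without that array was -0.23 (adjusted p = 0.0552), and array weights also ended it (0.0742).

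The classical lactate carriers differed by less than 1.5-fold. Slc16a1 (MCT1) was at 6.20 to 6.60 in LEC and 6.99, 6.53 and 6.66 in BEC, with a log2 fold change of -0.35 ± 0.10 (adjusted p = 0.0285). Its highest value was on BEC replicate 1, without which it was at -0.22 (adjusted p = 0.140). The call also ended without col LEC replicates 2 or 3 (adjusted p = 0.0504 and 0.0502), without BEC replicate 3 (0.0615), after cyclic loess (0.0898), after quantile normalization (0.0510) and with array weights (0.0693). Slc16a3 (MCT4, the lactate exporter of glycolytic cells) was at -0.23 (95% confidence interval -0.41 to -0.04, adjusted p = 0.0777). It passed without cap LEC replicate 1 (adjusted p = 0.0492) or BEC replicate 2 (0.0399). Slc16a11 was at -0.20 (adjusted p = 0.0609) and passed without BEC replicate 1 (0.0469) and after either normalization between arrays (0.0317 and 0.0482). Bsg (basigin), the chaperone that brings MCT1 and MCT4 to the surface, was lower in LEC, at -0.22 ± 0.06 (adjusted p = 0.0191). The lactate dehydrogenase genes Ldha (-0.65 ± 0.08) and Ldhb (-0.58 ± 0.08) were lower too. They were the 2 lower genes among 13 tested glutamine and lactate enzymes, where Gpt2 (0.53), Got2 (0.39) and Pdha1 (0.34) were higher.

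Slc1a genes encode carriers of glutamate and of neutral amino acids. Of the 5 tested, 2 were lower in LEC, against 10.6% of all genes tested. Slc1a1 (EAAT3, a sodium-driven glutamate and cysteine carrier) had 6.86, 6.48 and 7.00 in col LEC, 6.27, 6.29 and 6.27 in pre-col LEC and 6.85, 6.25 and 6.39 in cap LEC, against 10.15, 9.90 and 9.32 in BEC. The lowest BEC array was more than 2 log2 units above the highest LEC array, with a log2 fold change of -3.27 ± 0.17 (adjusted p = 3.14e-08). Slc1a5 (ASCT2, an exchanger known for glutamine uptake) had 7.63, 8.07 and 8.10 in col LEC, 7.83, 8.21 and 7.93 in pre-col LEC and 7.52, 8.05 and 7.88 in cap LEC, against 9.10, 9.19 and 9.09 in BEC. All LEC arrays lay below BEC, with replicate 1 lowest in each LEC group, and the log2 fold change was -1.22 ± 0.13 (adjusted p = 1.75e-05).

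The Slc7a carriers included 1 gene higher and 3 lower in LEC among 10 tested. Slc7a1 (CAT1, the carrier of arginine and lysine) had 9.72, 9.64 and 9.84 in col LEC, 9.49, 9.58 and 9.55 in pre-col LEC and 9.25, 9.35 and 9.43 in cap LEC, against 8.65, 8.41 and 8.71 in BEC. All LEC arrays exceeded BEC, by a log2 fold change of 0.95 ± 0.08 (adjusted p = 1.62e-06). Slc7a5 (LAT1, which exchanges large neutral amino acids) had 7.99, 7.91 and 7.95 in col LEC, 7.77, 7.61 and 7.74 in pre-col LEC and 7.64, 7.92 and 8.12 in cap LEC, against 9.18, 9.18 and 8.96 in BEC. Here all LEC arrays lay below BEC, with a log2 fold change of -1.26 ± 0.09 (adjusted p = 7.55e-07). Its heavy chain gene Slc3a2 had 9.67 to 10.16 in LEC and 10.15, 10.34 and 10.17 in BEC. That was a smaller difference of -0.32 ± 0.10 with overlap (adjusted p = 0.0406). The Slc3a2 call ended without pre-col LEC replicates 2 or 3, cap LEC replicates 2 or 3 or any BEC array (adjusted p at most 0.150, with -0.26 for the change, when BEC replicate 2 was left out) and without the filter on dim genes (0.0523).

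Further light chains were lower in LEC by less. Slc7a6 (y+LAT2, which exchanges cationic for neutral amino acids) was at -0.46 ± 0.13 (adjusted p = 0.0215) with overlap, and lost its call without BEC replicate 2 (0.114) or 3 (0.103). Slc7a8 (LAT2) was at -0.36 ± 0.10 (adjusted p = 0.0202) and rested on BEC replicate 3, at 7.02 against 6.60 and 6.43. Without that array it was at -0.19 (adjusted p = 0.0693), and with array weights at -0.24 (0.0882). The other 6 tested Slc7a genes did not pass the test.

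The sodium-coupled Slc38a genes held the largest difference of LEC above BEC among the 54 genes. Slc38a4 (SNAT4, a carrier of neutral amino acids known from liver and placenta) had 8.52, 8.47 and 8.31 in col LEC, 8.51, 8.72 and 8.80 in pre-col LEC and 9.16, 8.98 and 8.96 in cap LEC, against 5.97, 5.91 and 6.06 in BEC. It exceeded the array median on the 9 LEC arrays alone, so it passed the filter only where it was high and its p is a description. The log2 fold change was 2.74 ± 0.08 (adjusted p = 3.41e-10). Slc38a2 (SNAT2, which amino acid starvation induces) had 11.16, 11.22 and 11.37 in col LEC, 11.21, 11.31 and 11.20 in pre-col LEC and 11.09, 11.13 and 11.11 in cap LEC, against 10.89, 10.36 and 10.82 in BEC. No LEC array overlapped BEC, and the difference was 0.51 ± 0.10 (adjusted p = 0.00254). It was 0.35 without BEC replicate 2, the lowest array. Slc38a3 (SNAT3, a glutamine carrier) was lower in LEC, at -0.52 ± 0.08 (adjusted p = 0.000313), at 6.24 to 6.62 in LEC and 6.92 to 7.08 in BEC. Slc38a9, the lysosomal arginine sensor of mTORC1, was at 0.10 (95% confidence interval -0.17 to 0.37), Slc38a1 at -0.10 and Slc38a5 at 0.02, none passing the test.

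Of the 4 Slc36a genes, proton-coupled amino acid carriers, limma called 0, against 22.6% of all genes tested. An unadjusted p under 0.05 was found for 6678 of all 19675 genes tested and for 1 of these 4. This was Slc36a4, at 0.29 (adjusted p = 0.0837). The lysosomal carrier gene Slc36a1 was at 0.02, with a 95% confidence interval of -0.24 to 0.28. In the Slc43a family, Slc43a2 (LAT4, an exporter of branched-chain amino acids, phenylalanine and methionine) was higher in LEC by 0.35 ± 0.09 (adjusted p = 0.0202). Its groups overlapped, and the call ended without BEC replicate 1 (0.0985, at 0.26) or 2 (0.0658). Slc43a3, which carries purine nucleobases rather than amino acids, was at 0.05 (95% confidence interval -0.13 to 0.23), a mean over unequal LEC groups. Its col LEC arrays all lay below BEC (11.72 to 11.78) and its cap LEC arrays all above.

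**Figure D3:**
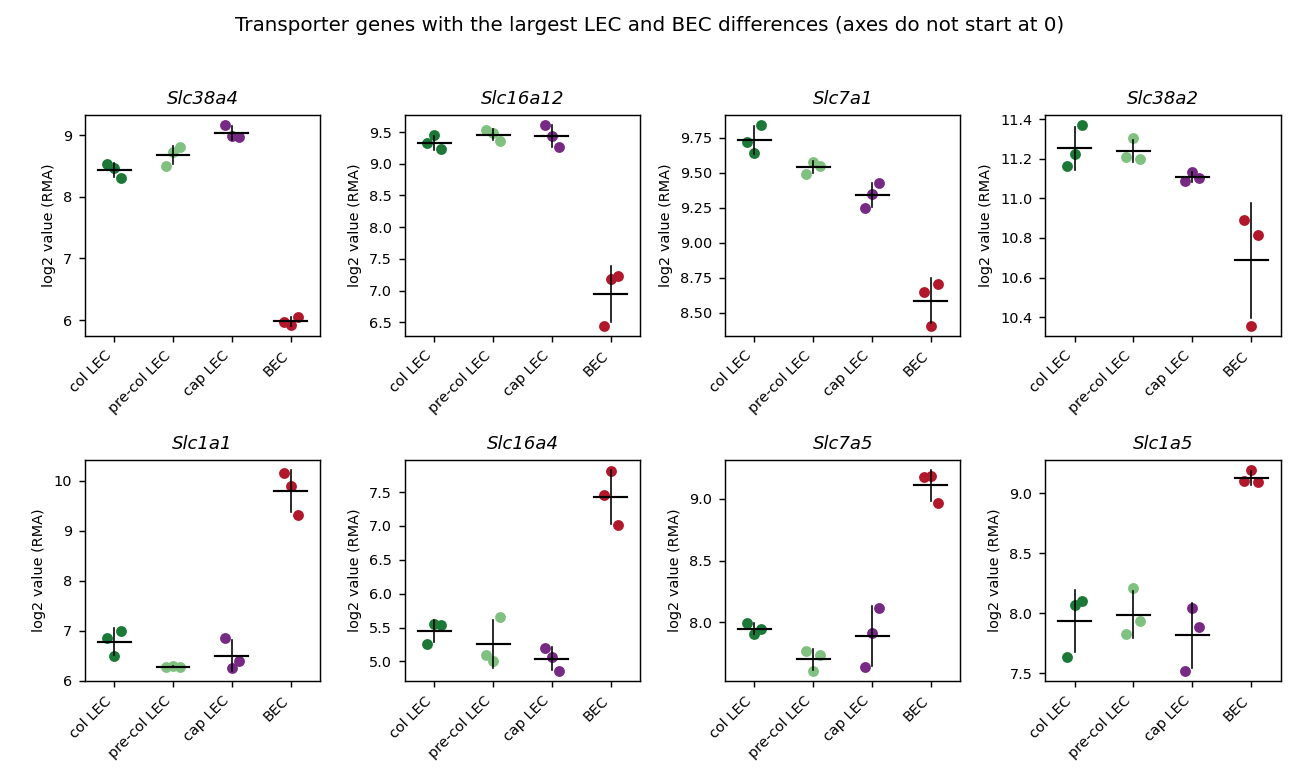
Log2 RMA value (y axis) on each array (points) of 8 transporter genes in col LEC, pre-col LEC, cap LEC and BEC, with group mean (bar) and SD (vertical line, n = 3). In these 8 genes no LEC array overlaps the BEC arrays, and Slc38a4, Slc16a12, Slc7a1 and Slc38a2 are above BEC.

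The subtypes of LEC were compared next. Collecting cells had more Slc2a1 and Slc16a13 and less Slc38a4 and Slc43a3 than capillary cells, by 1.5-, 1.59-, 1.52- and 1.37-fold. These were 2 of 54 genes higher and 2 lower (7.41%), against 1.64% of all genes tested (0.651% higher, 0.986% lower). The median was 0.07 over the 54 genes and 0.03 over all genes. Groups did not overlap in 18 of 54 genes, 10 higher and 8 lower in col LEC, against 20.8% of all genes (11.4% and 9.33%). Against pre-collecting cells, collecting cells differed in Slc2a1 alone (1 of 54, or 1.85%, against 0.300% of all genes, 0.117% higher and 0.183% lower). Groups did not overlap there in 9 genes higher and 3 lower in col LEC, against 6.95% and 4.39% of all genes (11.3% together). Between pre-collecting and capillary cells limma called 0 of 54 genes, against 0% of all genes. An unadjusted p under 0.05 was found for 5 of the 54 genes, against 1257 of all 19675 genes tested. All 22 fits of this comparison called 0 of the 54 genes. Pre-col LEC arrays all lay above cap LEC arrays in 6 genes and below in 3, against 6.25% and 7.96% of all genes (14.2% together). Without pre-col LEC replicate 1, where mural and fibroblast markers were high, the counts were 5 for col LEC minus cap LEC, 0 for col LEC minus pre-col LEC and 18 for LEC minus BEC. Without col LEC replicate 1 they were 2, 0 and 18.

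Slc2a1 had 9.94, 10.32 and 10.04 in col LEC, 9.46, 9.43 and 9.49 in pre-col LEC and 9.49, 9.48 and 9.59 in cap LEC. All col LEC arrays exceeded both other groups, which overlapped each other. The log2 fold change was 0.58 ± 0.11 over cap LEC (adjusted p = 0.0233) and 0.64 ± 0.11 over pre-col LEC (adjusted p = 0.0425). The call against cap LEC ended without col LEC replicates 2 or 3 or any cap LEC array (adjusted p at most 0.0943, with 0.56 for the change, when cap LEC replicate 2 was left out) and when only these groups were fitted (0.0556). That against pre-col LEC ended without any LEC array or BEC replicate 3 (adjusted p at most 0.145, with 0.63 for the change, when pre-col LEC replicate 2 was left out), when only these groups were fitted (0.159) and without the filter on dim genes (0.0548). Over all these fits the change stayed between 0.47 and 0.66 over cap LEC and between 0.53 and 0.72 over pre-col LEC.

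Slc16a13 had 9.35, 9.27 and 9.39 in col LEC, 8.80, 8.76 and 8.91 in pre-col LEC and 8.72, 8.95 and 8.34 in cap LEC. Col LEC exceeded the other LEC groups and overlapped BEC (9.47, 9.35 and 9.32). It was higher than in cap LEC by 0.67 ± 0.13 (adjusted p = 0.0222), while the 0.51 ± 0.13 over pre-col LEC did not pass (adjusted p = 0.210). The call ended without cap LEC replicate 1 or any col LEC array (adjusted p at most 0.0866, with 0.64 for the change, when col LEC replicate 3 was left out) and when only these groups were fitted (0.0905). Without cap LEC replicate 3, its lowest array, the change was 0.51 and passed. Slc7a1, the arginine carrier, followed the order col, pre-col, cap and BEC, and no neighbouring groups overlapped. Its difference between col and cap LEC was 0.39 ± 0.09 (adjusted p = 0.0685), which passed with array weights (0.0124) and without BEC replicate 2 (0.0393).

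Slc38a4 ran the other way, with cap LEC above both other LEC groups, which overlapped. Col LEC was lower than cap LEC, at -0.60 ± 0.10 (adjusted p = 0.00881), and this call held in each of the 21 other fits (adjusted p at most 0.0450, when col LEC replicate 3 was left out). Pre-col LEC was at -0.36 ± 0.10 relative to cap LEC without overlap (adjusted p = 0.539). Slc43a3 had 11.33, 11.64 and 11.70 in col LEC, 11.72, 11.84 and 11.86 in pre-col LEC and 11.95, 12.11 and 11.98 in cap LEC, and the 3 LEC groups did not overlap. Its difference of -0.46 ± 0.10 between col and cap LEC (adjusted p = 0.0428) lost its call in 10 of 12 fits that left out 1 array. The exceptions were the fits without col LEC replicate 3 and without pre-col LEC replicate 1. Its adjusted p was at most 0.181, with -0.41 for the change, when cap LEC replicate 2 was left out. It was also lost without the filter on dim genes (0.0525) and when only these groups were fitted (0.118).

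Further differences between col and cap LEC did not pass the test. Slc7a7 (y+LAT1, which exports cationic amino acids) was at -0.61 ± 0.17 relative to cap LEC (adjusted p = 0.131), with 7.83, 8.26 and 7.98 in col LEC against 8.59, 8.78 and 8.52 in cap LEC. It passed with the replicate block (adjusted p = 0.0318), with array weights (0.0252) and without BEC replicate 2 (0.0492). Slc16a9 (MCT9, a carnitine carrier in humans) was at -0.50 ± 0.13 (adjusted p = 0.0865) and passed after cyclic loess (0.0385), with array weights (0.0354) and without pre-col LEC replicate 1 (0.0354). Slc38a10 was at -0.41 ± 0.11 (adjusted p = 0.109) and the intracellular glucose carrier gene Slc2a8 at -0.30 ± 0.10 (adjusted p = 0.228). Array weights called both (0.0469 and 0.0311). Slc38a11, not tested because it exceeded the array median on 1 array, had 5.94, 6.27 and 5.85 in col LEC against 5.45, 5.36 and 5.41 in cap LEC. With no filter on dim genes its difference was 0.61 ± 0.13 (adjusted p = 0.0526).

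**Figure D4:**
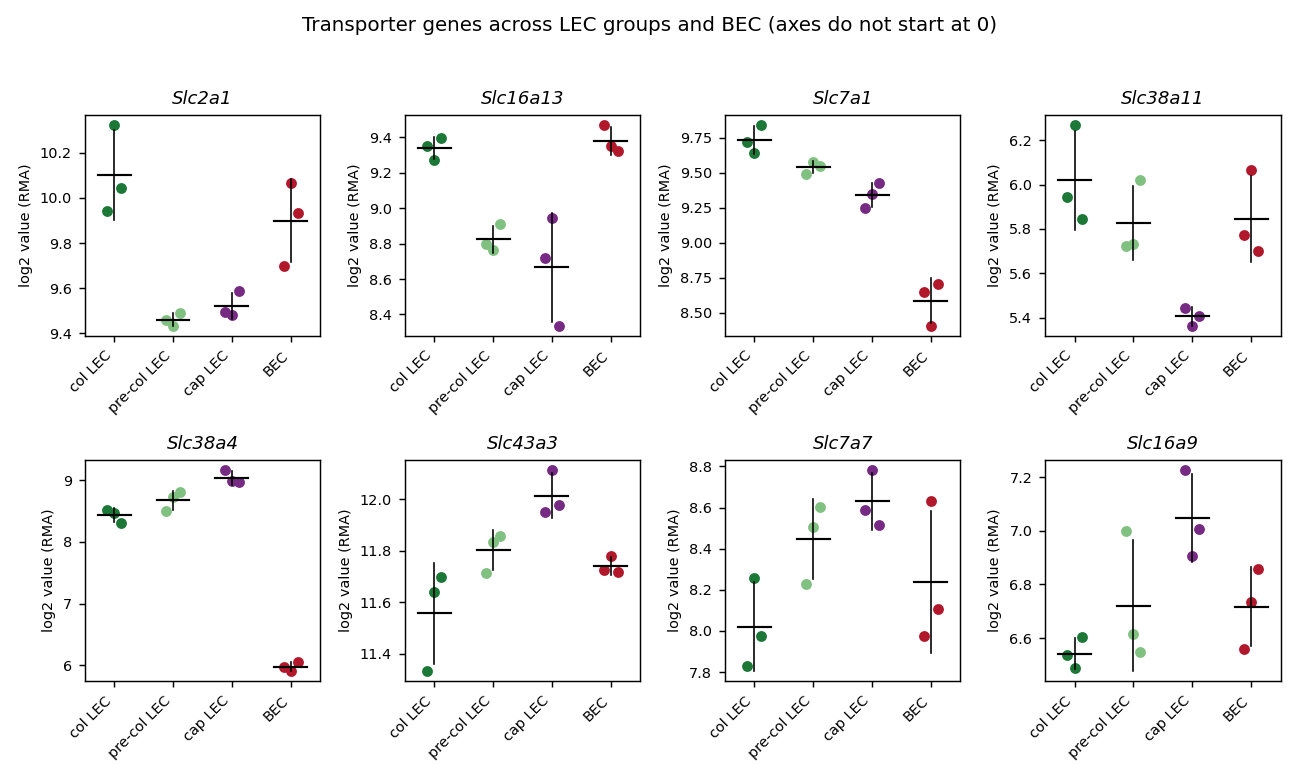
Log2 RMA value (y axis) on each array (points) of 8 transporter genes in col LEC, pre-col LEC, cap LEC and BEC, with group mean (bar) and SD (vertical line, n = 3). The upper row shows genes with col LEC above cap LEC, led by Slc16a13 (0.67), and the lower row genes with col LEC below cap LEC.

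Genes that act with these carriers were counted from 5 lists chosen by role, which held 76 tested genes. The lists were chosen with earlier results of these data known, so their counts here and in the next paragraph are descriptions. Of these, 17 were higher and 15 lower in LEC than in BEC (42.1%), against 22.6% of all genes tested. Sesn2 and Gpt2 stand in more than 1 list. Of the 9 tested of 12 listed genes for carrier subunits and traffic, 4 were higher and 4 lower in LEC than in BEC. Arrdc3 (2.07 ± 0.16), an arrestin-domain adaptor, and Tbc1d4 (1.05 ± 0.07), which controls GLUT4 vesicles, were higher by the most. Txnip, which promotes removal of GLUT1 from the surface, was at 0.36 ± 0.06 and Arrdc4 at 0.43 ± 0.14. The 4 lower genes were Slc9a3r1 (-0.51 ± 0.09), Tbc1d1 (-0.30 ± 0.09), Nedd4l (-0.28 ± 0.07) and Bsg (-0.22 ± 0.06). Of the 24 tested of 28 listed genes for amino acid sensing by mTORC1, 4 were higher and 1 lower, a share near that of all genes. Sesn1 (1.27 ± 0.15) and Sesn3 (1.14 ± 0.34) were higher, while the leucine sensor gene Sesn2 (-0.49 ± 0.12) was lower. For Sesn3 the LEC and BEC arrays overlapped. Its col LEC mean was 1.64 ± 0.41 above cap LEC, which did not pass limma's test (adjusted p = 0.0801).

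The amino acid response list holds the kinase gene Eif2ak4, its downstream factor Atf4 and genes linked to them. It had 5 of 20 tested genes higher and 4 lower in LEC. For this list and those that follow, the share of all genes tested called either way in LEC minus BEC was 22.6%. Asparagine synthetase Asns was at -1.08 ± 0.11 and Chac1 at -0.88 ± 0.19, whereas Nupr1 was at 1.36 ± 0.11 and Trib3 at 0.58 ± 0.07. Of 12 tested transport and barrier genes known from brain capillaries, 2 were higher and 5 lower in LEC. The drug exporter gene Abcb1a was at -4.21 ± 0.12 and the taurine carrier gene Slc6a6 at -1.42 ± 0.10. The list of glutamine and lactate enzymes had 3 of 13 tested genes higher and 2 lower in LEC. Between col and cap LEC, 4 of the 76 list genes were called (5.26%, against 1.64% of all genes), all higher in col LEC. Odc1, which makes polyamines from ornithine, was at 1.53 ± 0.14 (adjusted p = 0.000151) and Lsr at 1.24 ± 0.12 (adjusted p = 0.000216). Slc6a6 was at 0.59 ± 0.12 (adjusted p = 0.0277) and the ubiquitin ligase gene Nedd4l at 0.42 ± 0.09 (adjusted p = 0.0405).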

How the data were processed

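The authors deposited log2 values after RMA, per the submitters' processing notes. Their range shows the log2 scale. The sources used here do not give the software, the annotation or whether arrays were normalized together. Per the labels' protocols, 500 pg of RNA per sample was amplified, and arrays have no depth: their number limits the precision. The platform annotation gave 30604 rows 1 symbol and 2146 several. Of the latter, 612 named 1 gene and the others were not used. Symbols on 827 rows were updated through Entrez IDs with RefSeq. Each gene kept its brightest row. Genes above the array median on at least 3 arrays (19675) were fitted with limma 3.58.1 (R 4.3.3) on all 12 arrays as 4 group means, with eBayes and Benjamini-Hochberg adjustment over all genes tested. A call is an adjusted p under 0.05, two-sided. Errors of fold changes are moderated standard errors. Alternatives were other normalizations, filters, rows, weights, a replicate block, fits of the groups compared and leaving out each array.

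Transporter genes and gene lists were chosen with earlier results of these data known. Genes named were every called transporter gene, the brightest gene of each family and a set fixed by role. Beside the genes called among LEC groups and the 6 largest differences of LEC against BEC, Slc7a1, Slc2a4 and Slc38a2 were given on each array. Brightness served to pick names only. Genes near the threshold, Slc38a11 among them, were added after their values were seen. The fit was tested on simulated data. Plots used matplotlib 3.10.9.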

Additional observations from a re-analysis of the deposited data

How the results depend on the processing

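No change of sign occurred among the 23 calls of a transporter gene in a comparison, and 12 of them kept their call under each alternative that was run, which were 12 fits without 1 array each and up to 9 others. The number of transporter genes called between col and cap LEC, 4 as reported, was 9 with array weights, 1 in a fit of those 2 groups alone and 1 to 5 in the fits without 1 array. Between col and pre-col LEC it was 1 as reported, 0 without the filter on dim genes, 0 in a fit of those 2 groups alone and 0 to 1 without 1 array. For LEC minus BEC it was 18 as reported and 13 to 19 without 1 array, lowest without BEC replicate 3, and between pre-col and cap LEC it was 0 under each alternative. The replicate block gave 5, 0, 1 and 18 for col minus cap, pre-col minus cap, col minus pre-col and LEC minus BEC. Replicate numbers were not taken as pairs, since the labels do not state that they pair samples. Deviations of same-numbered arrays from their group means correlated with r = -0.09 to 0.21, over 0.1 in 7 of 18 pairs, with a median of 0.09. Arrays of different number had a median of -0.03, with 2 of 36 pairs over 0.1, and 8 of 12 arrays correlated best with their own number. The median was thus higher for same-numbered arrays, and the main fit makes no allowance for pairs. The only call of a transporter gene that the block changed was Slc7a7, gained. Over all genes, col minus cap LEC gave 322 calls, 180 to 351 without 1 array and 281 to 792 otherwise; col minus pre-col LEC gave 59, 24 to 63 and 5 to 153; pre-col minus cap LEC gave 0, 0 to 1 and 0 to 28; LEC minus BEC gave 4453, 3401 to 4410 and 3814 to 4496. The stricter filter left Slc16a4 untested. The cause of these differences was not tested. The fit of all 4 groups is the only one for LEC minus BEC, so no fit of the groups compared was run there. The files used hold no detection flags, so signal over background was not measured.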
